A study of Mus musculus with 42 samples.

Results

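The 10 genes described here encode the enzymes that make prostaglandins and thromboxane and the enzyme that begins their breakdown: Pla2g4a, Ptgs1, Ptgs2, Ptges, Ptges2, Ptges3, Ptgds, Hpgds, Tbxas1 and Hpgd. They were chosen by gene symbol, and 10 of 10 were found among the 56691 genes of the deposited tables. The samples were whole kidneys of male, wild-type C57BL/6 mice, 6 weeks of age when the diets began and housed with 12 h light and 12 h dark. The diets, given for 14 weeks, were standard chow and a high-fat food that contained 3% EpSA. Zeitgeber time (ZT) counts the hours from lights on; kidneys were taken at ZT 1, 5, 9, 13, 17, 21 and 25. The labels list 3 mice for each time of each diet, or 42 libraries. The deposited table of the EpSA group carries another name, LEOA, and was matched to that group only through the descriptions of its samples. "EpSA" below names the combined diet: since no group on high-fat food alone was analysed here, fat and EpSA cannot be told apart.

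Prostanoids begin with arachidonic acid, which a phospholipase A2 cuts from membrane lipids. The cyclooxygenases turn it into prostaglandin H, and separate terminal synthases turn that into prostaglandin E, prostaglandin D or thromboxane. In the kidney prostaglandin E acts on blood flow, renin release and the handling of salt and water by the tubules, and a dehydrogenase inactivates it.

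Levels are in FPKM (fragments counted per length of exon and per size of the library), a length-corrected unit. Each of the 14 deposited values of a gene is the authors' mean over the mice of 1 diet and time, here called a pool; the spread between mice is not in these means and the sequencing depth is unknown. Error is therefore the spread between times that each model leaves, and n is 7 times a diet. Whether the mice of a pool were processed together is not given in the sources used here. Tests were made with limma on log2(FPKM + 1) over the 13344 genes that averaged 1 FPKM or more, and a call is a Benjamini-Hochberg adjusted p under 0.05 over all of them. The added 1 makes such differences smaller than true log2 ratios in low genes. Of the 10 genes, 8 passed that filter; Ptgs2 and Hpgds lay below it. Markers fixed for the parts of the kidney were present in every pool: the 5 proximal tubule markers summed to between 1177 and 1455 FPKM, the 8 collecting duct markers to between 221 and 347 FPKM.

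Ptges3 had the highest level, with a mean of 35.88 FPKM over the 14 pools, and Ptgs2 the lowest, with 0.25 FPKM. Hpgd followed Ptges3 at 9.73 FPKM, and their ranges did not overlap. Hpgd, Ptges2 (7.87 FPKM), Ptgs1 (7.08 FPKM) and Ptges (5.93 FPKM) formed a middle group in which each range overlapped that of its neighbour, although Ptgs1 was above Ptges in 13 of 14 pools. Ptgds (1.92 FPKM), Pla2g4a (1.77 FPKM) and Tbxas1 (1.2 FPKM) came next, with Ptgds above Pla2g4a in only 7 of 14 pools. Hpgds stood at 0.49 FPKM and was above Ptgs2 in 14 of 14 pools, though their ranges over all pools overlapped.

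**Figure D1:**
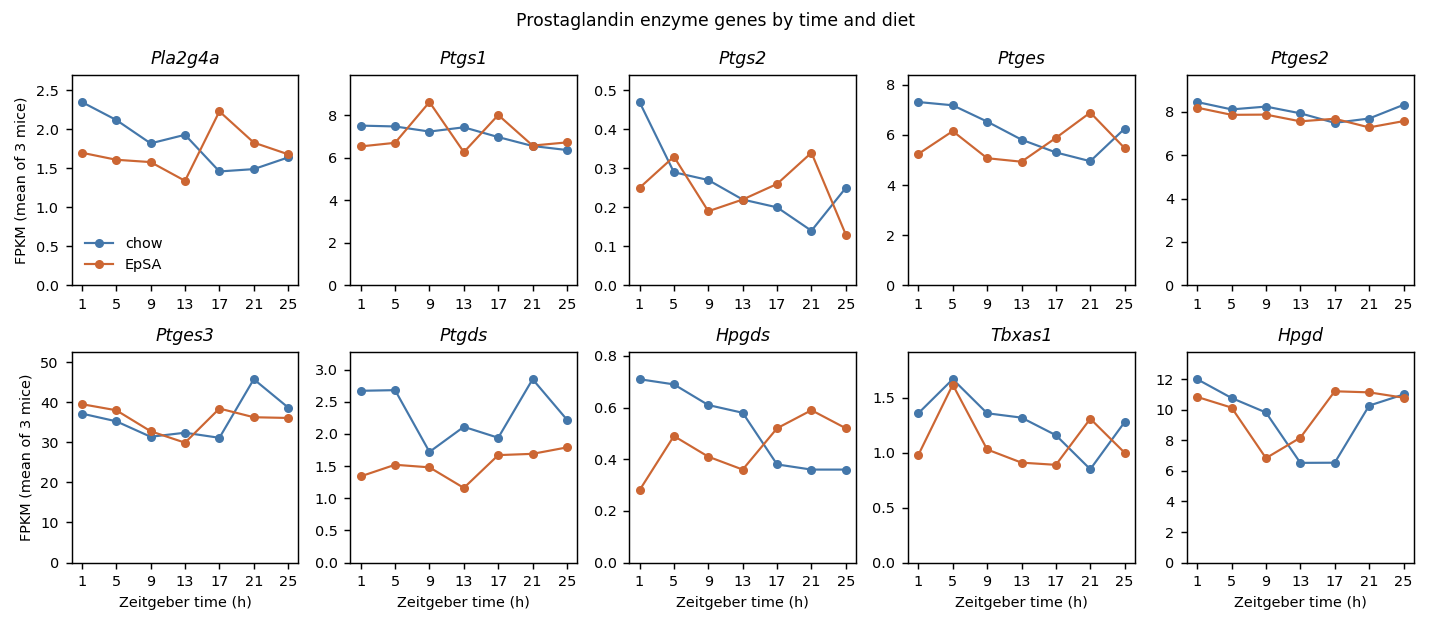
Level of each of the 10 genes in FPKM (vertical axes, from 0) against zeitgeber time in hours (horizontal axes); each point is the authors' mean of 3 mice on chow (blue) or EpSA (orange). Ptgds lies lower in EpSA at all 7 times, and the Hpgd trough is at ZT 13 to 17 in chow and at ZT 9 to 13 in EpSA.

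The first comparison asked which of these genes differed between the diets. None was called. Ptgds, a synthase of prostaglandin D, had the widest difference of the 8 tested genes and was lower in EpSA at 7 of 7 times, but its adjusted p of 0.0651 missed the threshold. Over all 13344 genes, 23 were called higher in EpSA (0.172%) and 10 lower (0.0749%). Of the 8 tested genes, 6 had a fitted difference below 0 and 2 above, with a median of -0.06 on the log2 scale, against 7197 below 0 and 6147 above with a median of -0.01 over all genes. At an unadjusted p under 0.05, 1 of 8 was lower (Ptgds), where 10.6% of all genes were. In none of the 10 did the range of the diets separate with EpSA lower, which happened in 0.465% of all genes tested.

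Pla2g4a encodes the cytosolic phospholipase A2 that releases arachidonic acid. In chow it was 2.35, 2.12, 1.82 and 1.93 FPKM at ZT 1, 5, 9 and 13 and then 1.46, 1.49 and 1.64 FPKM at ZT 17, 21 and 25. In EpSA it was 1.70, 1.61, 1.58, 1.34, 2.23, 1.83 and 1.68 FPKM over the same times. The chow pools were thus above the EpSA pools at the first 4 times and below them at the last 3. The ranges overlapped, and the fitted difference was -0.06 ± 0.09 on the log2 scale (SE, n = 7 times, adjusted p = 0.759, limma), with a 95% interval of -0.27 to 0.15.

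Ptgs1 and Ptgs2 encode the cyclooxygenases, the first made steadily in many cells and the second inducible; in the kidney Ptgs2 is known from the macula densa and the interstitium of the medulla. Ptgs1 lay between 6.37 and 7.52 FPKM in chow (median 7.24) and between 6.27 and 8.63 FPKM in EpSA (median 6.71). Its difference was -0.01 ± 0.06 on the log2 scale (SE, n = 7 times, adjusted p = 0.957, limma), with a 95% interval of -0.15 to 0.13. The EpSA pools at ZT 9 and ZT 17, at 8.63 and 8.02 FPKM, were the highest of the 14. The collecting duct markers also had their highest sums in those pools, at 335.41 and 347.21 FPKM. A link between these values was not tested. Ptgs2 was 0.47, 0.29, 0.27, 0.22, 0.20, 0.14 and 0.25 FPKM over the 7 times in chow. In EpSA it was 0.25, 0.33, 0.19, 0.22, 0.26, 0.34 and 0.13 FPKM. The single highest pool was chow at ZT 1, and at levels this low its steps between times could not be set against a counting error, since no counts are in the tables. A fit without the filter gave -0.02 ± 0.06 (SE, n = 7 times, adjusted p = 0.906, limma). In FPKM, Ptgs1 exceeded Ptgs2 by between 16.11 and 45.85 times in chow and between 19.35 and 52.99 times in EpSA.

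Several enzymes can make prostaglandin E: the inducible microsomal synthase Ptges, the membrane-associated Ptges2, and Ptges3, also known as the p23 co-chaperone. In chow Ptges was 7.31, 7.18, 6.53, 5.81, 5.30, 4.95 and 6.25 FPKM over the 7 times, each lower than the one before as far as ZT 21. In EpSA it was 5.24, 6.15, 5.07, 4.93, 5.88, 6.89 and 5.47 FPKM. The lowest chow pool, ZT 21, was therefore the time of the highest EpSA pool. Across all times the diets overlapped, with a difference of -0.11 ± 0.09 on the log2 scale (SE, n = 7 times, adjusted p = 0.556, limma); single times ran from -0.41 at ZT 1 to 0.41 at ZT 21. Ptges2 had the narrowest range for its level of the 10, with the highest pool 1.13 times the lowest in chow and 1.12 times in EpSA; it lay between 7.49 and 8.45 FPKM in chow and between 7.28 and 8.19 FPKM in EpSA. It was lower in EpSA at 6 of 7 times, by a fitted -0.05 ± 0.04 on the log2 scale (SE, n = 7 times, adjusted p = 0.464, limma).

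Ptges3 lay between 31.10 and 45.71 FPKM in chow and between 29.88 and 39.49 FPKM in EpSA. Its means were 35.93 ± 5.19 FPKM in chow and 35.82 ± 3.41 FPKM in EpSA (SD, n = 7 times), and the difference was 0.00 ± 0.07 on the log2 scale (SE, adjusted p = 0.993, limma). Its processed pseudogene Ptges3-ps was listed at a mean of 52.106 FPKM, above Ptges3 itself in every pool. How the authors' counting shared reads between these near-identical sequences is not given in the sources used here, so the level of Ptges3 is uncertain. The ratio of Ptges3-ps to Ptges3 lay between 1.1 and 1.67 over the pools, and it was lowest at ZT 21 in chow, where Ptges3 was highest.

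Prostaglandin D is made by the lipocalin-type synthase Ptgds, which also binds small lipids, and by the haematopoietic synthase Hpgds of mast cells and other immune cells. Ptgds was 2.67, 2.68, 1.72, 2.11, 1.94, 2.85 and 2.22 FPKM over the 7 times in chow. In EpSA it was 1.34, 1.52, 1.48, 1.16, 1.67, 1.69 and 1.79 FPKM. EpSA was below chow at each of the 7 times, as in 4.13% of all genes tested, but the ranges met: the lowest chow pool was 1.72 FPKM at ZT 9 and the highest EpSA pool 1.79 FPKM at ZT 25. The means were 2.31 ± 0.43 FPKM in chow and 1.52 ± 0.22 FPKM in EpSA (SD, n = 7 times), a ratio of 0.66. On the log2 scale the difference was -0.39 ± 0.08 (SE, n = 7 times, adjusted p = 0.0651, limma), with a 95% interval of -0.56 to -0.22.

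The Ptgds difference was near -0.5 at ZT 1, 5, 13 and 21, at -0.65, -0.55, -0.53 and -0.52 on the log2 scale, and smaller at ZT 9, 17 and 25, at -0.13, -0.14 and -0.21. In a model without time as a factor the adjusted p was 0.0452, past the threshold; that model called more of all genes, 0.719% higher in EpSA and 0.45% lower. Over all alternatives it ran from 0.0452 to 0.294, with a difference between -0.57 and -0.29. In whole tissue, fewer cells of a type and less RNA per cell cannot be told apart. Among tested genes with a symbol other than a model number, those most like Ptgds over the 14 pools were Eif2b4 (Pearson r = 0.92), Tmem37 (r = 0.91) and Pgp (r = 0.91). These are correlations across pools that share their mice and libraries and are given as descriptions. Tmem37 averaged 46.7 FPKM in chow and 35.19 FPKM in EpSA, and Pgp 12.27 and 9.68 FPKM.

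Hpgds was low and split the chow pools: 0.71, 0.69, 0.61 and 0.58 FPKM at ZT 1 to 13, and 0.38, 0.36 and 0.36 FPKM at ZT 17 to 25. The EpSA pools were 0.28, 0.49, 0.41, 0.36, 0.52, 0.59 and 0.52 FPKM. EpSA was thus lower at the first 4 times and higher at the last 3, as for Pla2g4a. A fit without the filter gave -0.07 ± 0.09 on the log2 scale (SE, n = 7 times, adjusted p = 0.761, limma).

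Tbxas1 encodes thromboxane synthase, known from platelets and macrophages. It was 1.36, 1.67, 1.36, 1.32, 1.16, 0.85 and 1.28 FPKM in chow. The EpSA values were 0.98, 1.62, 1.03, 0.91, 0.89, 1.31 and 1.00 FPKM. ZT 5 was the highest time in both diets, and EpSA was lower at 6 of 7 times, with ZT 21 the exception. The difference was -0.12 ± 0.08 on the log2 scale (SE, n = 7 times, adjusted p = 0.415, limma), with a 95% interval of -0.29 to 0.05. Its nearest genes by pattern over the 14 pools, among the same named genes, were Zc3h12a (r = 0.88), Map3k10 (r = 0.87) and Gcn1l1 (r = 0.86).

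Hpgd encodes the dehydrogenase that begins the inactivation of prostaglandins. In chow it was 12.01, 10.78, 9.83, 6.53, 6.54, 10.28 and 11.01 FPKM. In EpSA it was 10.85, 10.15, 6.84, 8.18, 11.22, 11.15 and 10.80 FPKM. Both diets had a trough, at ZT 13 and 17 in chow and at ZT 9 and 13 in EpSA, so ZT 13 was low in both. The lowest pool was at ZT 13 in chow and at ZT 9 in EpSA. The means were 9.57 ± 2.18 FPKM in chow and 9.88 ± 1.70 FPKM in EpSA (SD, n = 7 times), a difference of 0.05 ± 0.12 on the log2 scale (SE, adjusted p = 0.828, limma) with a 95% interval of -0.21 to 0.32. Single times ran from -0.47 at ZT 9 to 0.70 at ZT 17, and without ZT 17 the fitted difference was -0.05. Nearest to Hpgd in pattern, among the same named genes, were Slc16a1, Zw10 and Osbpl8, each at r = 0.90 over the 14 pools.

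A pair of promoters is shown because their genes had the widest and the narrowest daily amplitude in chow of the tested genes: Hpgd and Ptges2. Each is the 250 bases before the RefSeq start (GRCm38.p6), 5′ to 3′ on the gene's strand, and capitals mark a match to the E-box CACGTG, to which the clock proteins CLOCK and BMAL bind.
Hpgd, chr8:56294302-56294551, plus strand: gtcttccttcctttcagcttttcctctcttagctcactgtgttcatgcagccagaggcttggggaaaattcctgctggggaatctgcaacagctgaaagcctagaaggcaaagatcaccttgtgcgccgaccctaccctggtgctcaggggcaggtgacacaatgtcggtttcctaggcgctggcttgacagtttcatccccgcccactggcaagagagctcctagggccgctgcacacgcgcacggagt
Ptges2, chr2:32395640-32395889, plus strand: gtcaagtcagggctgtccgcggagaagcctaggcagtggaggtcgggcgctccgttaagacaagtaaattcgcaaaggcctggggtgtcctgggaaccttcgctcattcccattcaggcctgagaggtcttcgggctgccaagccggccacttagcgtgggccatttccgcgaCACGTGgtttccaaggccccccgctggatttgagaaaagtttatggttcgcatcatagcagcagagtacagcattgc
The search covered both strands for the E-box, the D-box (TTATGTAA or TTACGTAA), the RORE core (TAGGTCA), the CRE (TGACGTCA) and the TATA box (TATAAA). None of these letters was in the Hpgd window, whose GC content was 56.8%. The Ptges2 window held the E-box 77 bases before the start, as 6.02% of the 32851 RefSeq windows of this length did. The Ptgds window held a D-box match (TTACATAA on its strand) 141 bases before the start, which 0.931% of the windows hold, and 1 of the Pla2g4a windows held the RORE core 207 bases before the start, which 2.23% hold. The other matches were to the TATA box, which 12.4% of the windows hold: 11 and 13 bases before the start of Tbxas1, on opposite strands, and 200 bases before the start in another Pla2g4a window. Such a match is a run of letters and no sign that a factor binds there.

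**Figure D2:**
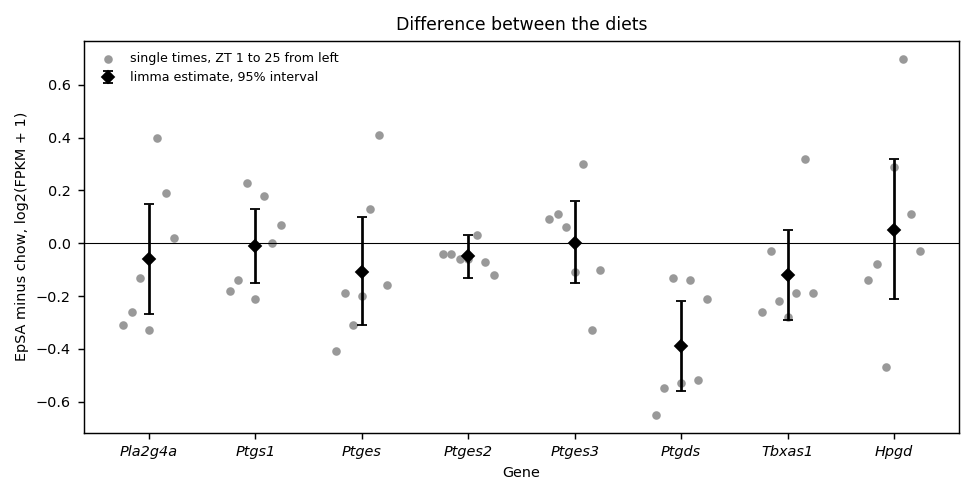
Difference between the diets, EpSA minus chow, on log2(FPKM + 1) (vertical axis) for the 8 tested genes (horizontal axis). Grey points are the 7 single times in order, diamonds the limma estimate and bars its 95% interval; only the interval of Ptgds, -0.56 to -0.22, stays below 0, before any adjustment for the number of genes.

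The second comparison asked whether the genes followed a daily rhythm in either diet. A 24 h cosine was fitted to the 7 times of each diet; its amplitude is the height of the peak above the mean on log2(FPKM + 1). No gene of the 10 was called rhythmic in chow, where 0.0974% of all genes tested were called, or in EpSA, where 0.045% were. At an unadjusted p under 0.05, 3 of 8 passed in chow (Hpgd, Ptges and Ptges3), against 10.2% of all genes, and 1 of 8 in EpSA (Hpgd), against 8.63%. Ptges3 lay at the edge of that threshold in chow and did not pass with ZT 1, 5, 9, 13 or 25 left out, and Ptges did not pass without ZT 5. The median amplitude of the 8 was 0.18 in chow and 0.11 in EpSA, where that of all genes was 0.09 in both.

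Hpgd, whose promoter window held none of the motifs searched, had the widest amplitude of the 8. In chow its amplitude was 0.39 ± 0.06 with a fitted peak at 2.7 ± 0.6 h (SE, n = 7 times, adjusted p = 0.159, limma). In EpSA the amplitude was 0.29 ± 0.06 with a peak at 21.8 ± 0.8 h (SE, n = 7 times, adjusted p = 0.526, limma). The peak was thus fitted 4.9 ± 1.0 h earlier in EpSA. Over 13 alternatives the fitted peak stayed between 1.8 and 3.4 h in chow and between 20.9 and 22.8 h in EpSA. The highest pool was nevertheless 12.01 FPKM at ZT 1 in chow and 11.22 FPKM at ZT 17 in EpSA, and in EpSA the pools from ZT 17 to ZT 25 were within 10.80 to 11.22 FPKM.

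For Ptges the fitted peaks lay further apart than for Hpgd, with a wider error in EpSA. The peak was at 5.5 ± 0.9 h in chow with an amplitude of 0.22 ± 0.06 (SE, n = 7 times, adjusted p = 0.366, limma), and at 21.3 ± 2.2 h in EpSA with an amplitude of 0.11 ± 0.07 (SE, n = 7 times, adjusted p = 0.72, limma). Ptges3 had an amplitude of 0.20 ± 0.07 in chow and 0.13 ± 0.05 in EpSA, with adjusted p of 0.486 and 0.622 by limma; its fitted peaks, 22.9 ± 1.3 h and 23.6 ± 1.8 h, lay within their errors. Ptgs1 and Ptges2 were the flattest, with amplitudes between 0.04 and 0.08. The other 3 tested genes, Tbxas1, Ptgds and Pla2g4a, had amplitudes of 0.16 to 0.19 in chow and 0.09 to 0.13 in EpSA, with adjusted p no lower than 0.508 by limma.

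**Figure D3:**
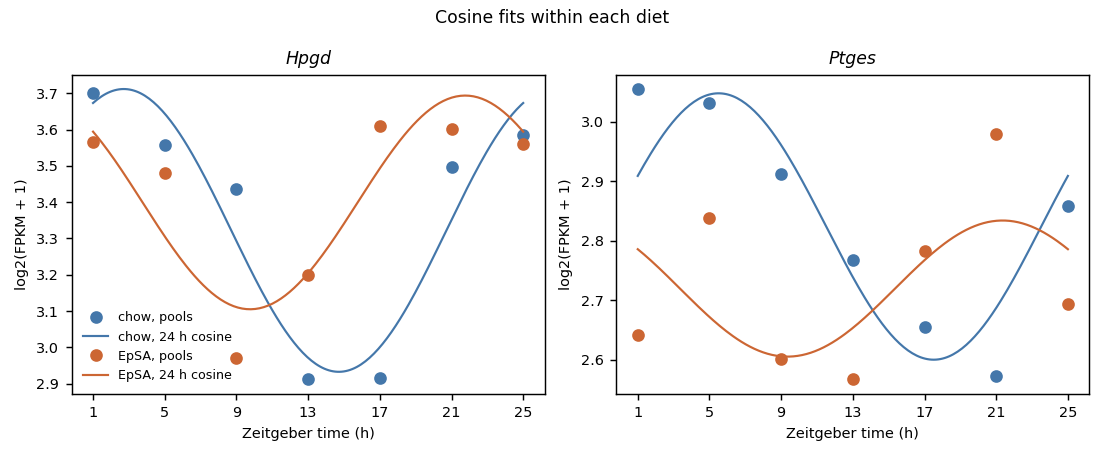
log2(FPKM + 1) of Hpgd and Ptges (vertical axes) against zeitgeber time in hours (horizontal axes), with the pools as points and the fitted 24 h cosine as a line for chow (blue) and EpSA (orange). The fitted Hpgd peak is at 2.7 h in chow and at 21.8 h in EpSA, and neither fit passed the adjusted threshold.

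ZT 1 and ZT 25 are the same hour a day apart. For Hpgd the pools of those times differed by -0.12 on the log2 scale in chow and -0.01 in EpSA (ZT 25 minus ZT 1). The gap was wider for Pla2g4a in chow, at -0.34, for Ptgs1 in chow, at -0.21, and for Ptgds, at -0.19 in chow and 0.25 in EpSA. For these 3 genes the gap between pools of the same hour was wider than the fitted amplitude of the same diet. So it was for Ptges2 in EpSA, at -0.10 against an amplitude of 0.04. For Ptges in chow the gap was -0.20, near its amplitude of 0.22, and for Ptges3 in EpSA it was -0.13, with an amplitude of 0.13. Below the filter, Hpgds (-0.33 in chow, 0.25 in EpSA) and Ptgs2 (-0.23 and -0.15) also had gaps wider than their amplitudes in the unfiltered fit.

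The difference of rhythm between the diets was tested directly as the interaction of diet with the cosine. No gene of the 10 was called, and 0% of all genes tested were. At an unadjusted p under 0.05, 2 of 8 passed (Hpgd and Ptges), against 4.38% of all genes; both had an adjusted p of 0.823 by limma. With single times left out, Hpgd no longer passed unadjusted without ZT 17, nor Ptges without ZT 9, ZT 17 or ZT 21. Over 13 alternatives the adjusted p of Hpgd ran from 0.569 to 0.997.

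The authors' deposited tables also hold their own rhythm analysis (meta2d, which joins several rhythm tests). In the authors' deposited table for chow, Hpgd had a meta2d p of 0.000931 and a q of 0.25, with a phase of 1.4 h and a relative amplitude of 0.28. In the authors' deposited table for EpSA, Hpgd had a p of 0.0197 and a q of 0.857, with a phase of 20.3 h and a relative amplitude of 0.22. No gene of the 10 had a deposited q under 0.05, which 0% of all genes tested had in chow and 0.015% in EpSA. By the deposited p under 0.05, Hpgd and Tbxas1 passed in chow (2 of 10, against 11.8% of the genes tested) and Hpgd alone in EpSA (1 of 10, against 9.82%). The authors' deposited table for chow gives Tbxas1 a p of 0.0467 and a phase of 6.5 h.

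Beyond the 10 genes, 50 other genes of the pathway, listed by role, gave 26 that averaged 1 FPKM or more, and none was called in either direction. Of the 26, 16 had a fitted difference below 0 and 10 above, with a median of -0.05 on the log2 scale. Over all 13344 genes tested, 7197 were below 0 and 6147 above, with a median of -0.01. All 4 tested receptors of 9 listed were below 0. Ptger3, a receptor of prostaglandin E known from the thick limb and the collecting duct, averaged 6.54 ± 1.65 FPKM in chow and 5.32 ± 1.06 FPKM in EpSA (SD, n = 7 times), a difference of -0.24 ± 0.14 (SE, adjusted p = 0.381, limma). The other 3 receptors, Tbxa2r for thromboxane, Ptger1 for prostaglandin E and Ptgfr for prostaglandin F, differed by -0.08, -0.06 and -0.03. The prostaglandin D receptors Ptgdr and Ptgdr2 were below 1 FPKM, at means of 0.01 and 0.02 FPKM, and so were Ptger2 (0.07 FPKM), Ptger4 (0.58 FPKM) and the prostacyclin receptor Ptgir (0.85 FPKM).

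Both listed transporters were tested. Abcc4, which carries prostaglandins out of cells, had the highest positive difference of the 26, 0.23 ± 0.16 (SE, adjusted p = 0.473, limma), and Slco2a1, which takes them up, had -0.05. Of the 8 other synthases and reductases, 5 were below 0 and 3 above. Fam213b, a prostaglandin F synthase, was lower in EpSA at 7 of 7 times, as in 4.13% of all genes tested. At ZT 9 its difference was almost none. It averaged 9.54 ± 0.90 FPKM in chow and 8.43 ± 0.50 FPKM in EpSA (SD, n = 7 times), a difference of -0.16 ± 0.05 (SE, adjusted p = 0.161, limma). Akr1b3, an aldose reductase, differed by -0.26, Akr1c18 by 0.15 and the prostacyclin synthase Ptgis by -0.10.

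Among the 20 other phospholipases A2, 7 were tested, with 5 below 0 and 2 above; the widest were Pla2g16 at -0.14, Pla2g7 at -0.13, Pla2g5 at 0.06 and Pla2g12a at -0.06. In the lipoxygenase branch, which makes leukotrienes from the same arachidonic acid, 1 of 5 tested genes was below 0 and 4 above. That gene was Alox5ap, the activating protein of 5-lipoxygenase, at 3.01 ± 0.63 FPKM in chow and 2.24 ± 0.23 FPKM in EpSA (SD, n = 7 times), a difference of -0.30 ± 0.09 (SE, adjusted p = 0.148, limma). Ltc4s, Alox12 and Lta4h differed by 0.08, 0.06 and 0.03.

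**Figure D4:**
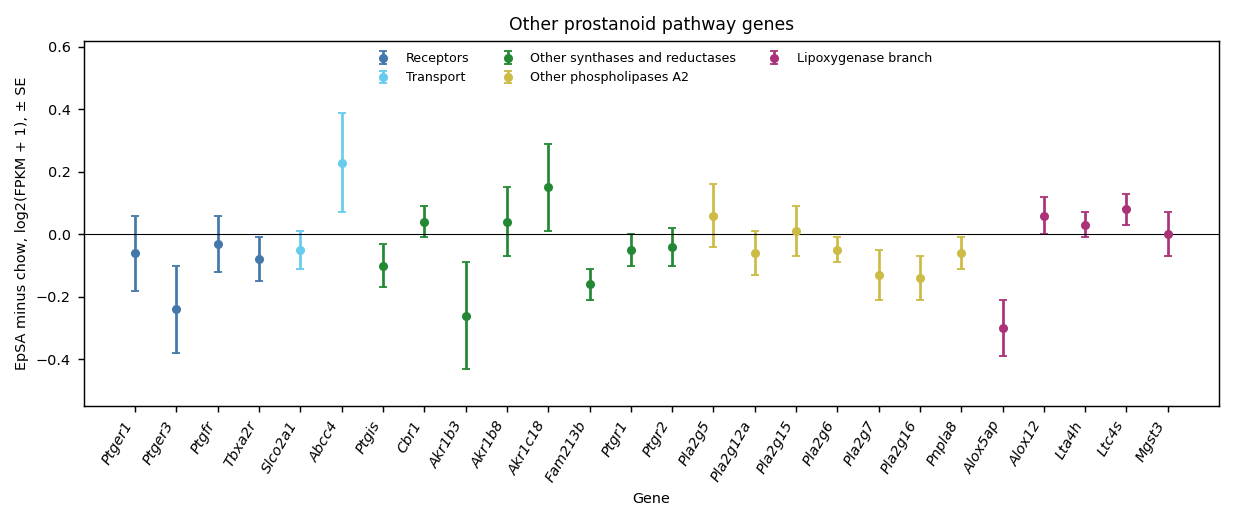
Difference between the diets, EpSA minus chow, on log2(FPKM + 1) with its SE (vertical axis) for the 26 tested genes of the pathway lists (horizontal axis), coloured by role. Alox5ap at -0.30 is the lowest and Abcc4 at 0.23 the highest, and none passed the adjusted threshold.

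Markers of immune cells moved with several of these genes, as did those of some other cell types given below. The 9 macrophage and other immune markers summed to 794.8, 452.63, 423.06 and 928.49 FPKM in chow at ZT 1, 5, 9 and 13, and to 176.48, 191.85 and 213.7 FPKM at ZT 17, 21 and 25. In EpSA the sum lay between 178.77 and 233.5 FPKM at every time. Most of the sum was Cd74, an antigen-presentation gene, with 603.77 and 796.37 FPKM in chow at ZT 1 and ZT 13 against 99.02 FPKM at ZT 17. The complement gene C1qa of macrophages was 35.3, 33.43, 22.15 and 24.17 FPKM in chow at ZT 1 to 13 and 14.6, 17.32 and 17.7 FPKM at ZT 17 to 25, and between 13.11 and 18.39 FPKM in EpSA. All 9 had a fitted difference below 0, none was called, and none of the 9 was at 0.

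At ZT 1, 5, 9 and 13 the immune sum and Pla2g4a, Ptges and Hpgds were all lower in EpSA than in chow, and at ZT 17 and ZT 21 all were higher. At ZT 25 they did not move together: the immune sum was lower in EpSA (187.42 against 213.7 FPKM), as was Ptges (-0.16), while Pla2g4a (0.02) and Hpgds (0.16) were higher. The order was not particular to immune markers. Sums of the endothelium and of the inner medulla and papilla markers were lower in EpSA at ZT 1 to 13 and higher at ZT 17 to 25, as Pla2g4a and Hpgds were. For the inner medulla list, which also holds the pathway gene Akr1b3, the ZT 21 sums were close. They were 302.72 FPKM in chow and 303.56 FPKM in EpSA. Fibroblast and interstitial markers followed the order except at ZT 13, with 26.63 FPKM in chow and 27.25 FPKM in EpSA. Endothelium markers summed to 103.82 FPKM in chow and 81.66 FPKM in EpSA at ZT 1, and to 85.39 and 103.06 FPKM at ZT 17. Proximal tubule and collecting duct markers did not follow this order. At ZT 17, 21 and 25 alone, where the immune sums of the diets lay close together, the difference was 0.20 for Pla2g4a (adjusted p = 0.365, limma) and 0.12 for Ptges (adjusted p = 0.583), the opposite sign of that over all times. For Tbxas1 it was -0.02 (adjusted p = 0.936, limma). For Ptgds it was -0.29 (adjusted p = 0.294, limma), and for Hpgd 0.26 (adjusted p = 0.403). No gene of the 10 was called on those times. The times were chosen after seeing the data, and the fit only averages the differences at those times. Its signs therefore add no separate evidence. The part of the immune or the other markers in these values was not tested.

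**Figure D5:**
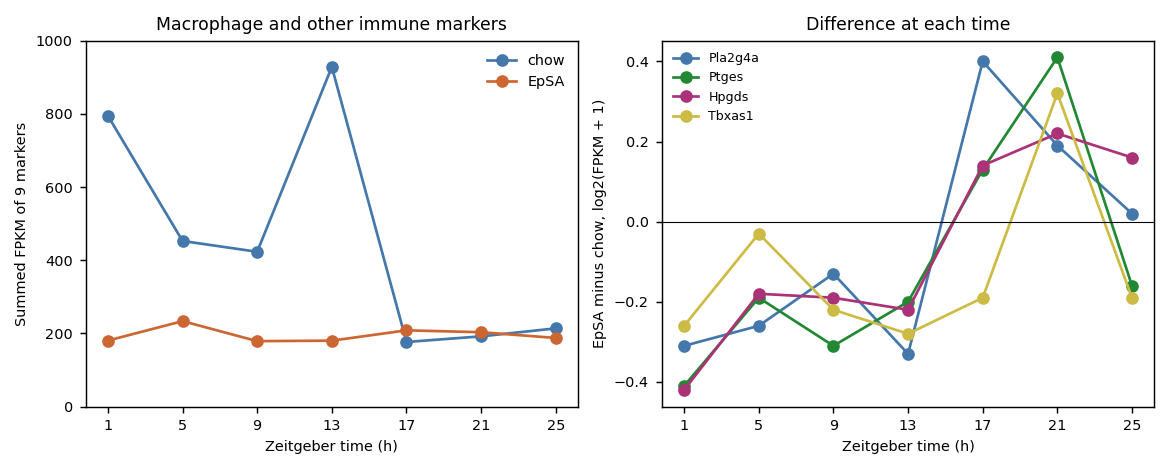
Left, summed FPKM of 9 macrophage and other immune markers (vertical axis, from 0) against zeitgeber time in hours for chow (blue) and EpSA (orange); right, difference between the diets (EpSA minus chow, log2(FPKM + 1)) of Pla2g4a, Ptges, Hpgds and Tbxas1 at each time. The chow sums at ZT 1 to 13, 423.06 to 928.49 FPKM, stand above all EpSA sums, and Pla2g4a, Ptges and Hpgds are below 0 at those times.

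Other markers differed as well. The 5 thick limb and macula densa markers summed to between 1047.91 and 1434.21 FPKM in chow and between 723.89 and 1111.61 FPKM in EpSA, lower in EpSA at 6 of 7 times. The 5 red blood cell markers were lower in EpSA at 7 of 7 times, at 302.93 to 426.62 FPKM against 373.31 to 699.27 FPKM in chow. Markers of platelets, the cells best known for Tbxas1, were lower at 6 of 7 times, at 2.72 to 3.78 FPKM against 3.23 to 4.64 FPKM. The exception was ZT 17 for the platelet markers but ZT 21 for Tbxas1. Mast cell markers, which bear on Hpgds, overlapped at 1.91 to 2.60 FPKM in chow and 1.91 to 2.87 FPKM in EpSA. Adrenal markers were at most 1.66 FPKM in all pools but EpSA at ZT 9, where they summed to 108.22 FPKM. That is the time of the lowest Hpgd pool in EpSA. Without ZT 9 the Hpgd amplitude in EpSA was 0.20 with a peak at 22.1 h, and no longer passed at an unadjusted p under 0.05. Of the 4 male reproductive duct markers only 1 averaged 1 FPKM or more, and Lcn5 was at 0 in all pools. Their sum was therefore nearly all 1 gene and is no measure of the list as a whole. It was 952.02 FPKM in chow at ZT 21. That was the pool of the highest Ptgds value, 2.85 FPKM. The next highest chow sum was 628.08 FPKM at ZT 25, and the EpSA sums lay between 512.4 and 611.74 FPKM. Fat markers ranged over 82.65 to 195.58 FPKM in chow and 55.58 to 215.39 FPKM in EpSA. The part of these markers in the values of the 10 genes was not tested.

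Positions from the GENCODE M21 annotation of GRCm38, which may not be the build the authors used, place Pla2g4a at chr1:149829618-149961290 and Ptgs2 beside it at chr1:150100031-150108227. Ptgds (chr2:25466709-25470046), Ptges (chr2:30889471-30929863), Ptges2 (chr2:32395896-32405772) and Ptgs1 (chr2:36230426-36252272) all lie on chromosome 2, and Hpgds (chr6:65117293-65144908) and Tbxas1 (chr6:38875404-39084585) on chromosome 6. Ptges3 is at chr10:128058954-128077272 and Hpgd at chr8:56294585-56321043. Ptgs1 shares 148 exon bases with Gm43621 on the other strand (0.248 FPKM) and Tbxas1 shares 144 with the antisense Gm42962 (0.142 FPKM); whether strand was used in counting is not given in the sources used here.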

How the data were processed

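Per the labels' protocols, kidney RNA gave paired reads of 150 bases. The authors deposited 2 tables, 1 per diet, of meta2d output joined to expression, per the file headers; which aligner, counter or build they used is not given in the sources used here. Deposited expression values were taken as FPKM, means of 3 mice, from the values: every value ends in a decimal that a mean of 3 allows, sums were 400590 to 435621, and in genes above 0 in 1 pool the value fell with exon length (Spearman -0.92, across 3067 genes). The authors' deposited p-values and q-values, and the deposited ratio called relative amplitude, are quoted as theirs.

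From these, log2(FPKM + 1) was fitted with limma 3.58.1 (R 4.3.3; trend and robust steps) on genes of at least 1 FPKM on average: time as a factor plus diet (6 residual degrees of freedom), a 24 h cosine per diet (4), and its interaction with diet (8). P-values measure only the spread between times that each model leaves, not the spread between mice. Code was tested on simulated data. The members, the pathway and marker lists and the tests were chosen with earlier results of these data known. All 10 members were named, up to 4 genes per pathway list with the widest difference, and the 3 genes nearest in pattern to each of the 3 most variable members. The nearest genes were sought among tested genes, passing over those without a symbol and model-number names (Gm, Rik, AC, BC, LOC). Alternatives were pseudocount 0.1, no filter or 5 FPKM, median or quantile scaling, each time left out, and no time factor. Those added after seeing the data were the fit without the trend and robust steps, the fit on ZT 17, 21 and 25, and the unfiltered fit of Ptgs2 and Hpgds.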

Additional observations from a re-analysis of the deposited data

How the results depend on the processing

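No paired analysis was possible because, for single mice, the columns hold means per diet and time and carry no replicate numbers; the fit between the diets compared pools of the same time. The depth is unknown and the spread between mice is not in the means, so the tests rest on 7 times a diet. Without time as a factor 1 of the 10 genes was called between the diets, Ptgds, with an adjusted p of 0.0452 by limma, in a fit that called 96 of all genes higher and 60 lower, against 23 and 10 with it; the other alternatives called 0 between the diets. By the deposited meta2d p, without adjustment, 2 were rhythmic in chow and 1 in EpSA; the limma alternatives called 0 for either rhythm and 0 for its difference. The difference of Ptges2, Ptgds and Tbxas1 kept its direction in all alternatives that held the gene. With single times left out, that of Ptgs1 ran from -0.05 to 0.03, that of Ptges3 from -0.05 to 0.06 and that of Hpgd from -0.05 (without ZT 17) to 0.14, so the direction of these 3 turned. On ZT 17, 21 and 25 alone, chosen after seeing the data, the direction turned for Pla2g4a (0.20), Ptgs1 (0.08), Ptges (0.12) and Ptges3 (-0.04). The cause was not tested.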

Other observations

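The ratio of Ptges, a synthase of prostaglandin E, to Hpgd, the enzyme that begins its breakdown, was 0.61, 0.67, 0.66, 0.89, 0.81, 0.48 and 0.57 in FPKM at ZT 1 to 25 in chow. In EpSA it was 0.48, 0.61, 0.74, 0.60, 0.52, 0.62 and 0.51. The highest value fell at ZT 13 in chow and at ZT 9 in EpSA, the times of the lowest Hpgd pool in each diet. As Hpgd is the divisor, a high ratio at those times is in part built in. The ratio was chosen after the values were seen, and no test was made of it.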
